A study of Mus musculus with 4 samples.

Results

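The genes described here are the glutathione S-transferases, the glutathione peroxidases, the enzymes that make, recycle and break down glutathione, and the Nfe2l2 group that is known to control many of them. Members were chosen by name, as a list of 44 genes in 6 groups, and each was represented by the brightest of the probe sets that carry its symbol alone. Of the 44 listed genes, 40 were measured in this way, out of 19938 named genes on the array. The other 4 members, Gsta1, Gsta2, Gstp2 and Ggt1, had no probe set that named them alone.

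The cells were NIH3T3, an established line of mouse fibroblasts, and all 4 samples came from the p19 clone, a stable line that carries the plasmids pBI-EGFP-FLAG-mCtcfl and pTA-N. Ctcfl, also called BORIS, is a relative of the chromatin insulator protein CTCF whose expression is normally confined to the testis, and here its FLAG-tagged mouse form is under Tet-Off control, so that doxycycline represses it. The 2 control samples were grown with doxycycline at 2 µg/ml, and the 2 Ctcfl samples had been in medium without the drug for 48 h. Induction of Ctcfl and absence of doxycycline therefore cannot be told apart, and all values describe a single clone. Each sample was hybridised to 1 Affymetrix array, and values are RMA expression values on the log2 scale, where a difference of 1 is a doubling. Nothing in the labels tells if the replicates of a group were grown separately. All p-values therefore reflect variation among these arrays alone, possibly technical, and their number limits the precision.

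Glutathione is a tripeptide of glutamate, cysteine and glycine, and in its reduced form it is the main soluble thiol of most cells. Glutathione S-transferases attach it to electrophiles so that the conjugates can be exported, glutathione peroxidases use it to reduce peroxides, and glutathione reductase returns the oxidised form to the reduced one. The transcription factor NRF2, encoded by Nfe2l2 and held in check by KEAP1, activates many of these genes through a short DNA element, the antioxidant response element.

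The arrays had medians between 5.20 and 5.24 and lower quartiles between 4.09 and 4.12. Ctcfl itself had 7.77 and 7.71 in the controls and 10.37 and 10.35 in the Ctcfl arrays (log2 change 2.62, SE 0.08, adjusted p = 5.38e-04 by limma). Its control values lay above the upper quartiles of those arrays (7.43 and 7.40), so the controls cannot be taken as free of Ctcfl signal. Of 10 fibroblast markers, 9 lay above the upper quartile of each array, and Fap lay between 3.30 and 3.48. The 27 measured markers of epithelial, haematopoietic, endothelial, fat and liver cells had mean values between 3.38 and 6.32, and 0 of them reached an unadjusted p of 0.05, with an adjusted p under 0.05 for 0 of them by limma. Among the 10 fibroblast markers, Pdgfrb (log2 change -0.56), Col3a1 (-0.38) and Pdgfra (-0.29) were lower at that unadjusted limit. This was 30% of them, against 5.32% of all genes, and 0 had an adjusted p under 0.05 by limma. Both Ctcfl arrays lay below both controls for 7 of the 10 (70%), as for 20.6% of all genes. The part of these marker differences in the results below was not tested.

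The promoters of 3 members are shown. Gstm5 is the member that rose, and Gstm7 is the mu-class gene with the next largest difference. Mgst1 is the member with the most negative difference among those with an entry in the promoter table. Gstm7 and Mgst1 did not pass the test described below. Each line gives the 250 bases before the outermost annotated start, 5′ to 3′ on the gene's strand, from RefSeq on GRCm38.p6. Capitals mark TGACNNNGC, the core of the antioxidant response element, and CCCTC, a core of the CTCF motif, on either strand, and no matches overlap in these 3 promoters.
Gstm5, chr3:107895604-107895853, plus strand: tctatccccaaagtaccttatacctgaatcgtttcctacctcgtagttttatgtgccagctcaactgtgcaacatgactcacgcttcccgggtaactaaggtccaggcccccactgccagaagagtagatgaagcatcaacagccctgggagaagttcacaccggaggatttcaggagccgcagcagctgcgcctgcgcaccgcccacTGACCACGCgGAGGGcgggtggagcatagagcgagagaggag
Gstm7, chr3:107931818-107932067, minus strand: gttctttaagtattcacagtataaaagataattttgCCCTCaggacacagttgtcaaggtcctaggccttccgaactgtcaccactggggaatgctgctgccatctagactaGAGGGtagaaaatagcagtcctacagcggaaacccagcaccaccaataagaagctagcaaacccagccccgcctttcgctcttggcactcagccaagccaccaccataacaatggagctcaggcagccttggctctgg
Mgst1, chr6:138140277-138140526, plus strand: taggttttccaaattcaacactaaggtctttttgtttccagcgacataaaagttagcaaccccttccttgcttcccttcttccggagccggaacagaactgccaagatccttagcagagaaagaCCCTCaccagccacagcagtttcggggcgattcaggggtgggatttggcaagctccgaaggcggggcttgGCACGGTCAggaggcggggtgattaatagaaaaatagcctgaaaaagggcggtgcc
The Gstm5 promoter held TGACCACGC at 42 to 34 bases before the start, followed by GAGGG, which is CCCTC on the other strand, at 32 to 28 bases. The Mgst1 promoter held the TGACNNNGC core on the other strand, as GCACGGTCA, at 56 to 48 bases and CCCTC at 126 to 122 bases. The Gstm7 promoter held CCCTC at 214 to 210 bases and GAGGG at 138 to 134 bases.

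Of the 44 members 37 had an entry in the promoter table, and no sequence is given for the other 7, which include Gsta4. The TGACNNNGC core was present in 6 of the 37 member promoters (16.2%), those of Gclm, Ggct, Gsta3, Gstm5, Mgst1 and Nfe2l2, against 10.1% of 27025 promoters of the same length. CCCTC was present in 27 of 37 (73.0%) against 59.7%. The longer CTCF consensus, searched on both strands, was in 0 of the 37 and in 0.0259% of all promoters. Of the 6 genes with the TGACNNNGC core, Gstm5 passed the test described below, and Mgst1, Gclm, Ggct, Gsta3 and Nfe2l2 did not, with log2 changes of both signs from -0.50 to 0.38. A match describes letters in this window and is not evidence of binding.

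The comparison asked which of these genes differ between cells with and without induced Ctcfl. Of the 40 measured members 1 rose, Gstm5, a mu-class transferase, and 0 fell at an adjusted p of 0.05 by limma (lmFit and eBayes, two-sided, Benjamini-Hochberg over all genes). Over the whole array 6 genes were higher (0.0301%) and 3 were lower (0.0150%) at that threshold, or 0.0451% in either direction, and with median centring of the arrays 16 were higher and 15 lower. At an unadjusted p of 0.05, 4 members were higher (10%) and 11 were lower (27.5%), where 5.36% of all genes were higher and 5.32% were lower. With 1 array left out, fewer members and fewer of all genes reached that limit, and a group then holds a single array. Both Ctcfl arrays lay above both controls for 10 members (25%) and below both for 18 members (45.0%), where 20.6% of all genes did so in each direction. The median difference over the 40 members was -0.03 on the log2 scale, against 0.00 over all genes. By these counts the share of lower members was above that of all genes, although 0 of them passed over all genes. Negative differences of any size were found in 52.5% of members and 48.6% of all genes. The members had medians of 7.06 to 7.29 by array, against 5.20 to 5.24 over all probe sets, and the shares were not matched for level. No test of the list as a whole was made.

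Among the mu-class transferases, which conjugate glutathione to a wide range of electrophiles and are encoded side by side, the difference was concentrated in Gstm5. Gstm5 is best known for its expression in brain and testis. It had 7.86 and 7.96 in the control arrays and 10.59 and 10.76 in the Ctcfl arrays. The groups were thus separated by a gap of 2.63 on the log2 scale, while the arrays of a group differed by 0.10 and 0.17. Gstm5 rose 6.80-fold (log2 change 2.765, SE 0.10, adjusted p = 6.02e-04 by limma). With 1 array left out the change was 2.68 to 2.85. Such a fit leaves 1 array in a group, so its p-values cannot decide if Gstm5 passes. In a fit over all probe sets, named or not, the adjusted p of Gstm5 was 0.0660 by limma.

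The other 6 mu-class genes differed far less. Gstm7 had 4.67 and 4.60 in the controls and 4.91 and 5.08 in the Ctcfl arrays (log2 change 0.36, SE 0.10, adjusted p = 0.348 by limma). Gstm6 had 3.66 and 3.59 against 3.98 and 3.8 (log2 change 0.26, SE 0.10, adjusted p = 0.439 by limma). For both genes the Ctcfl arrays lay above the controls, by amounts that did not pass over all genes, and Gstm6 lay below the lower quartile of each array, where a value cannot be separated from background. Gstm2 had 7.24 and 6.91 in the controls and 7.33 and 7.11 in the Ctcfl arrays (0.14). Gstm4 had 5.26 and 5.38 against 5.31 and 5.48 (0.08). Gstm1 had 7.86 and 7.69 against 7.68 and 7.74 (-0.06). In each of these 3 genes the groups overlapped. Gstm3 had 6.26 and 6.09 against 5.99 and 6.26 by its brightest probe set (-0.05), and its second probe set had 5.13 and 5.17 against 5.52 and 4.88 (0.05), so that both overlapped and their signs differed. Mu-class genes are close paralogs, and how far their probe sets share sequence was not tested.

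By RefSeq order, Gstm5 stands at the end of the cluster on the plus strand, while Gstm7, Gstm6, Gstm3, Gstm2, Gstm1 and Gstm4 follow in that order on the minus strand. The measured members next to Gstm5, Gstm7 and Gstm6, were those with the next largest positive differences in the class. The 4 farther genes lay between -0.06 and 0.14. Gstm7 lay below the median of each array and Gstm6 below the lower quartile, and neither passed. Without control replicate 1 the farther gene Gstm2 had 0.31 and Gstm6 0.30, so this order was not stable. Just before Gstm5 in this order stands the noncoding RNA gene 4933431E20Rik, on the minus strand. It had 4.57 and 4.54 in the controls and 4.67 on both Ctcfl arrays (log2 change 0.12, adjusted p = 0.646 by limma). Eps8l3, the next gene on that side, had a log2 change of -0.06. Within 100 kb past the far end, Ampd2 had -0.16, Gnat2 0.06 and Gnai3 0.02, and none of these genes passed. Gstm5 was thus the 1 gene of the 12 measured in the cluster and its flanks that passed the test.

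**Figure D1:**
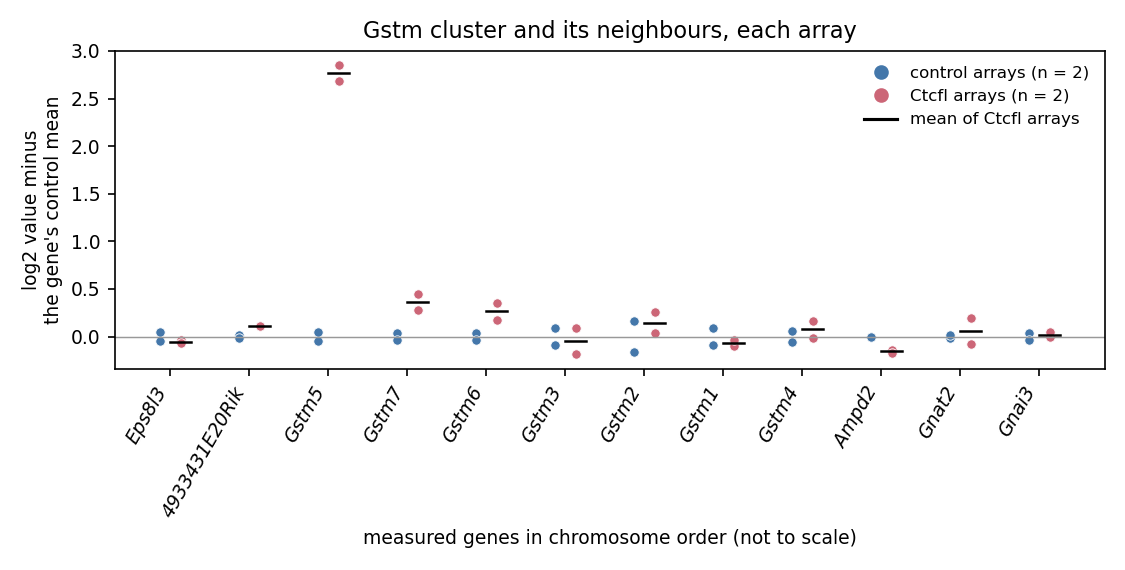
Log2 value of each array minus the control mean of the same gene, for the 7 mu-class genes and the 5 measured neighbours in chromosome order; blue points are the 2 control arrays, red points the 2 Ctcfl arrays and bars the Ctcfl mean. Gstm5 stands at 2.77, Gstm7 and Gstm6 at 0.36 and 0.26, and the other genes between -0.16 and 0.14.

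In the alpha class, whose members reduce lipid peroxides and conjugate aldehydes, the measured genes differed from each other. Gsta4, which conjugates hydroxynonenal, an aldehyde formed by lipid peroxidation, had 9.98 and 9.88 in the controls and 9.38 and 9.30 in the Ctcfl arrays. Both Ctcfl arrays were below both controls, by 1.51-fold on average (log2 change -0.59, SE 0.09, adjusted p = 0.156 by limma). This was the most negative difference among the 40 members, and of the alternatives tried it passed with an intensity trend and robust variances alone (adjusted p = 4.91e-05 by limma). Gsta3 had 4.34 and 4.47 against 4.33 and 4.69, and the groups overlapped (0.10). Gsta1 and Gsta2 were covered only by 4 probe sets that also name the predicted genes Gm10639 and Gm3776, with log2 changes from -0.11 to -0.02 and adjusted p-values over all probe sets from 0.789 to 0.965 by limma.

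Of the 12 measured transferases of other classes, 5 were lower and 1 was higher at an unadjusted p of 0.05, where 5.32% of all genes were lower and 5.36% higher, and 0 passed over all genes. Mgst1, a membrane-bound transferase and peroxidase of the endoplasmic reticulum and outer mitochondrial membrane, had 6.12 and 5.92 in the controls and 5.46 and 5.58 in the Ctcfl arrays (log2 change -0.50, SE 0.11, adjusted p = 0.263 by limma). Mgst2, a related membrane enzyme that can form a leukotriene conjugate, had 7.27 and 7.34 against 7.03 and 7.01 (-0.28, SE 0.08). The third member of that family did not share the sign, since Mgst3 had 6.77 and 6.91 against 7.21 and 6.97 (0.25, SE 0.11, adjusted p = 0.495 by limma).

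The omega-class enzymes reduce dehydroascorbate and remove glutathione from proteins. Gsto2 had 9.45 and 9.41 in the controls and 9.09 and 9.12 in the Ctcfl arrays (log2 change -0.32, SE 0.08, adjusted p = 0.331 by limma). Gsto1 had a smaller difference of -0.10 (SE 0.09), again with both Ctcfl arrays below both controls. Gstz1, the zeta-class maleylacetoacetate isomerase of tyrosine breakdown, had 7.38 and 7.24 against 7.07 and 6.85 (-0.35, SE 0.11). Gstk1, the kappa-class enzyme of mitochondria and peroxisomes, had 3.83 and 4.0 against 3.68 and 3.59 (-0.28, SE 0.10), below the lower quartile of each array. For all of these genes both Ctcfl arrays lay below both controls, as for 20.6% of all genes, by a gap of only 0.02 for Gsto1. None passed over all genes.

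All theta-class members had positive differences, unlike a theta-class gene outside the list. Gstt3 had 5.06 and 5.15 in the controls and 5.43 and 5.39 in the Ctcfl arrays (log2 change 0.30, SE 0.09, adjusted p = 0.355 by limma). Gstt2 had 0.20 (SE 0.10), with both Ctcfl arrays above both controls, and Gstt1 had 0.05 (SE 0.12), with overlapping groups. Gstt4, a theta-class gene outside the list of members, had -0.14 (SE 0.09), with both Ctcfl arrays below both controls, and none of the 4 passed over all genes. Hpgds, the sigma-class enzyme that makes prostaglandin D, had 0.20 (SE 0.09), with every array below the lower quartile. Gstp1, the pi-class gene, had -0.10 (SE 0.08), and the 2 probe sets that name both Gstp1 and Gstp2 had -0.15 and -0.16, with adjusted p-values over all probe sets of 0.735 and 0.739 by limma.

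Among the 5 peroxidases 1 was lower and 0 were higher at an unadjusted p of 0.05 (5.32% and 5.36% of all genes), and the group's median difference was 0.09 (log2). Gpx7, a peroxidase of the endoplasmic reticulum that helps oxidise folding proteins, had 5.74 and 5.58 in the controls and 5.34 and 5.20 in the Ctcfl arrays (log2 change -0.39, SE 0.10, adjusted p = 0.341 by limma). Gpx8, its membrane-anchored relative in the same compartment, had -0.02 (SE 0.09), with overlapping groups. Gpx1, the main cytosolic selenoenzyme, had 9.74 and 9.71 against 9.95 and 9.88 (0.19, SE 0.08, adjusted p = 0.486 by limma). Gpx4, which reduces lipid hydroperoxides and protects cells from ferroptosis, had 0.09 and its second probe set 0.08. The secreted Gpx3 had 0.09. Gpx2, a selenium-dependent enzyme outside the list of members, had -0.09. Its groups overlapped, as did those of Gpx3, and none of these genes passed.

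Of the 8 measured genes of synthesis, reduction and breakdown, 2 were lower and 0 were higher at an unadjusted p of 0.05 (5.32% and 5.36% of all genes). Gss, which adds glycine in the last step of synthesis, had 8.33 and 8.31 in the controls and 8.08 and 8.07 in the Ctcfl arrays (log2 change -0.24, SE 0.08, adjusted p = 0.412 by limma). Gsr, the glutathione reductase, had 8.72 and 8.69 against 8.43 and 8.45 (-0.26, SE 0.08, adjusted p = 0.385 by limma). The arrays of a group differed by 0.01 to 0.03 for these genes, against gaps of 0.23 and 0.24 between the groups. Gclc and Gclm, the catalytic and modifier subunits of the rate-limiting glutamate-cysteine ligase, had 0.01 (SE 0.09) and 0.04 (SE 0.11), and both overlapped.

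Among the breakdown genes, Ggct and Ggt7 varied most within a group, with Ctcfl arrays 0.57 and 0.43 apart. Ggct, which releases oxoproline from gamma-glutamyl peptides, had 5.08 and 4.92 in the controls and 5.10 and 5.67 in the Ctcfl arrays (log2 change 0.38, SE 0.19, adjusted p = 0.517 by limma). Its difference rested on Ctcfl replicate 2, without which it was 0.10. Oplah, which converts oxoproline back to glutamate, had -0.23 (SE 0.12), and the surface transferases Ggt5 and Ggt7 had 0.04 and 0.12, with overlapping groups.

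Nfe2l2, Keap1 and the 4 target genes all had negative differences, from -0.28 to -0.10, with a median of -0.19, and for each of the 6 both Ctcfl arrays lay below both controls, as for 20.6% of all genes. At an unadjusted p of 0.05, 2 of the 6 were lower, against 5.32% of all genes, and 0 passed over all genes. Hmox1, the heme oxygenase, had 9.58 and 9.43 in the controls and 9.27 and 9.17 in the Ctcfl arrays (log2 change -0.28, SE 0.10, adjusted p = 0.412 by limma). Nqo1, a quinone reductase often used as a readout of NRF2, had 8.06 and 7.91 against 7.69 and 7.73 (-0.28, SE 0.09, adjusted p = 0.412 by limma). Txnrd1, the cytosolic thioredoxin reductase, had -0.20 (SE 0.09), Srxn1, the sulfiredoxin that repairs peroxiredoxins, had -0.10 (SE 0.09), Nfe2l2 itself had -0.12 (SE 0.08) and Keap1 had -0.18 (SE 0.10). The gap between the 2 control arrays was 0.15 for Hmox1 and Nqo1 and 0.16 for Keap1, so the spread within a group was not small against these differences.

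**Figure D2:**
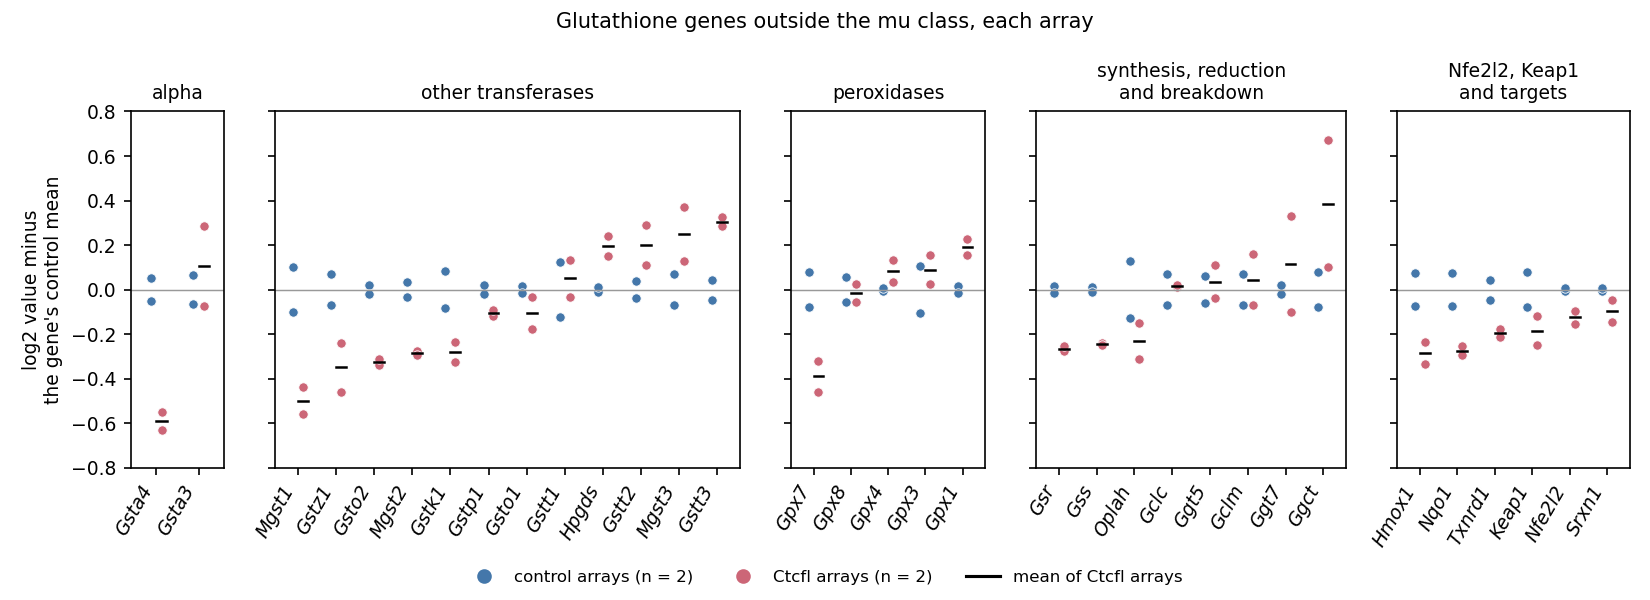
Log2 value of each array minus the control mean of the same gene, for the 33 measured members outside the mu class, by group and ordered by difference; blue points are the 2 control arrays, red points the 2 Ctcfl arrays and bars the Ctcfl mean. Gsta4 (-0.59) and Mgst1 (-0.50) are the most negative, the 6 genes of the Nfe2l2 group all lie below 0, and the 2 Ctcfl arrays of Ggct lie far apart.

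The call of single members depended on how the variance was modelled. With an intensity trend and robust variances, limma called 6 members in place of 1: Gstm5, Gsta4, Mgst1 (adjusted p = 0.0452), Gsto2 (adjusted p = 0.00846), Gsr (adjusted p = 0.0488) and Hmox1 (adjusted p = 0.0365), and 479 genes over the whole table in place of 9.

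**Figure D3:**
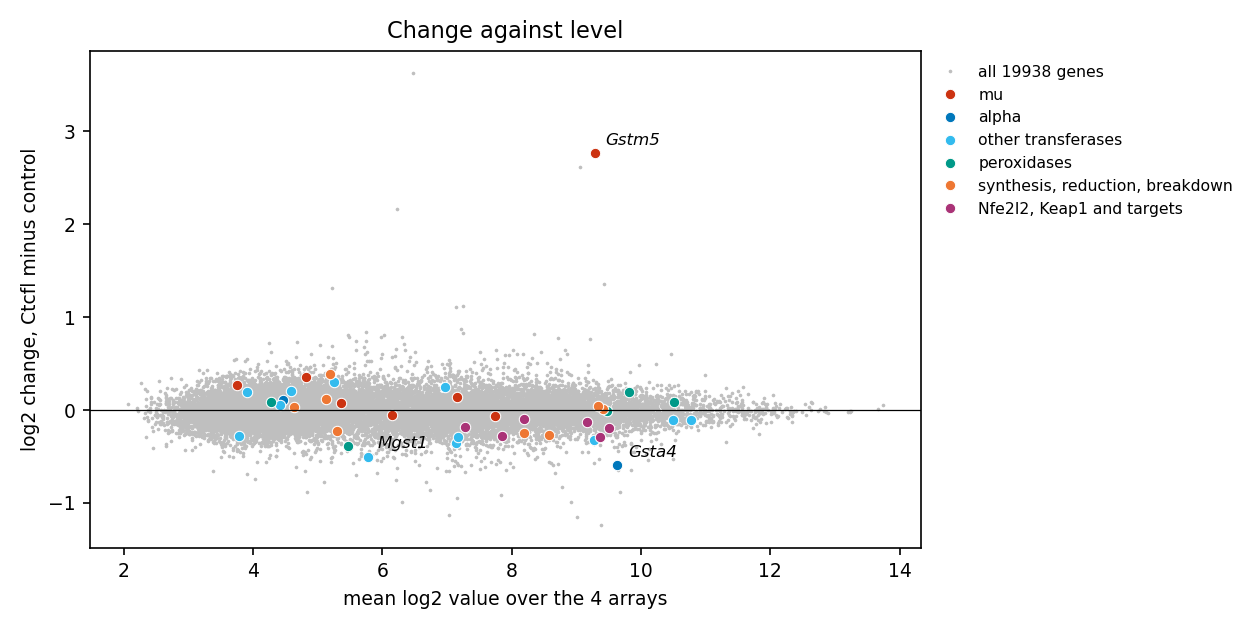
Log2 change (Ctcfl minus control) against the mean log2 value over the 4 arrays, for all 19938 genes in grey and the 40 measured members in colour by group. Gstm5 at 2.77 stands apart from the other members, which lie between -0.59 and 0.38 within the spread of all genes.

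Other genes that supply or accompany glutathione were read from 5 lists with 110 genes, of which 101 were measured. At an unadjusted p of 0.05, 9 were higher (8.91%) and 9 lower (8.91%), where 5.36% and 5.32% of all genes were, and 0 passed over all genes by limma. Cysteine and glutamate supply had 4 of 9 genes lower and 0 higher, with a median difference of -0.16. Of these 4, Cth, which makes cysteine from cystathionine, had 7.71 and 7.93 in the controls and 7.13 and 7.24 in the Ctcfl arrays (log2 change -0.64, adjusted p = 0.185 by limma). The glycine transporter Slc6a9 had 8.23 and 8.28 against 7.77 and 7.60 (-0.57, adjusted p = 0.183 by limma). The others were the cystine transporter Slc7a11 (-0.46, adjusted p = 0.248 by limma), below the median of each array, and the glutamine transporter Slc1a5 (-0.35). The remaining measured genes of the list lay between -0.165 (Slc3a2) and 0.04 (Glud1).

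Of 24 measured thioredoxin, peroxiredoxin and glutaredoxin genes, 4 were higher (16.7%) and 2 lower (8.33%) at an unadjusted p of 0.05 by limma. Over all genes these shares were 5.36% and 5.32%, and 0 of the 24 had an adjusted p under 0.05 by limma. Txnrd3, a thioredoxin reductase that also acts on glutathione disulfide, had 6.11 and 6.18 in the controls and 6.71 and 6.72 in the Ctcfl arrays (log2 change 0.57, adjusted p = 0.152 by limma). Of the 4 measured peroxiredoxins, which reduce hydrogen peroxide, Prdx1 had 0.38, while Prdx2 (-0.32), Prdx3 (-0.11) and Prdx4 (-0.12) had negative values. Sesn3, a stress-induced sestrin, had 0.38.

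Other NRF2 targets and partners had 3 of 27 genes higher (11.1%) and 2 lower (7.41%) at an unadjusted p of 0.05, with a median of -0.02. Over all genes 5.36% were higher and 5.32% lower. Cbr3, a carbonyl reductase, had -0.54 and Abcc1, which exports glutathione conjugates, had -0.29, while Trim16 had 0.34 and Mafk, a small Maf partner of NRF2, had 0.26. Of 26 remaining transferase, peroxidase and peptidase genes, 2 were higher (7.69%) and 1 lower (3.85%) at that limit, near the shares over all genes. The glyoxalases, which use glutathione to clear methylglyoxal, had 0.32 for Hagh and -0.22 for Glo1, the dipeptidase Cndp2 had 0.26 and Gstp3, another pi-class gene, had -0.26. Of 15 genes of selenium handling 0 reached an unadjusted p of 0.05 (0 adjusted, by limma), and the values with the smallest p were 0.19 for Secisbp2, -0.16 for Selenon, 0.18 for Selenow and 0.18 for Selenom.

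**Figure D4:**
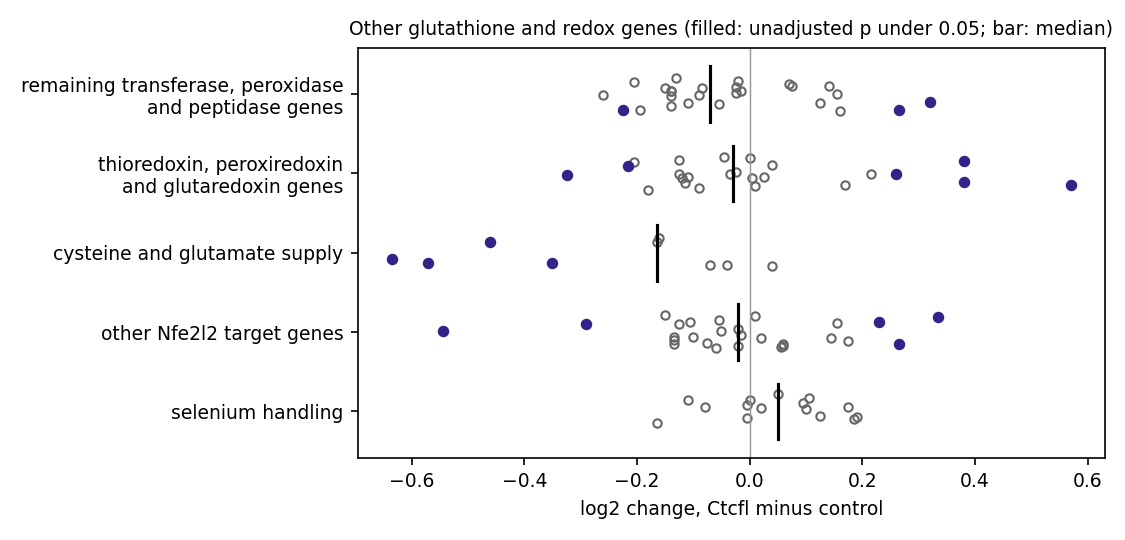
Log2 change (Ctcfl minus control) of the 101 other glutathione and redox genes by list, each point a gene, filled where the unadjusted p was under 0.05, with a bar at the list's median. The cysteine and glutamate supply list has its median at -0.16 and 4 filled points, all negative, while the filled points of the thioredoxin and NRF2 target lists lie on both sides of 0.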

How the data were processed

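RNA of 4 samples was measured on Affymetrix arrays. Per the labels, the deposited values come from the Expression Console program, with which the authors ran RMA, a method that corrects background, equalises the arrays by quantiles and gives 1 log2 value for each probe set. Its version and options are not given in the sources used here. Of 35512 probe sets, 35511 had values, and no detection calls accompany them. By the platform annotation of 2016, 21789 of these named 1 gene and 1621 several, while 12101 have no entry in it. RefSeq's GRCm38.p6 gene table held the identifiers of 21698, left every symbol as it was and gave the order of genes within 100 kb of the Gstm cluster. Sequences came from RefSeq's promoter table.

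For every gene the brightest of its probe sets was used, which gave 19938 genes, with no filter on low values. The test was limma 3.58.1 (R 4.3.3), adjusted over those genes by Benjamini-Hochberg, with a limit of 0.05, and the procedure was tested on simulated data. Alternatives were quantile normalisation, median centring, removal of the dimmest 33.3% of genes, the mean of probe sets, an intensity trend and robust variances (statmod 1.5.0), replicate blocks, each array left out and a fit over all probe sets. Values by array were to be given for members past the limit, all mu-class genes and, in other groups, members at an unadjusted p under 0.05 or the 2 with the smallest p, with up to 4 genes from each other list and Cth and Slc7a11. Array values of further members, and Gstt4, Gpx2, Prdx3 and Prdx4, were added after their values were seen. The members, lists and rules were chosen with earlier results of these data known. Figures used matplotlib 3.10.9.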

Additional observations from a re-analysis of the deposited data

How the results depend on the processing

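Gstm5 kept its direction in all 12 alternatives (2.68 to 2.85) and passed under 5 of them, with adjusted p-values from 1.93e-13 to 5.62e-04 by limma. The replicate numbers were not shown to pair the arrays, since deviations of same-numbered arrays correlated at -0.102 across genes. With a replicate block 0 genes were called in either direction (1468 unadjusted) and 0 members, and Gstm5 had an adjusted p of 0.0710 by limma. A crossed block, added after seeing the data, called 0 genes and 0 members too (2105 genes unadjusted). The fit over all probe sets called 0 named genes and 0 members (2764 probe sets unadjusted). Each array left out gave 0 calls (1329 to 1663 unadjusted) and rests on fewer arrays. There, 2 to 5 members were higher and 4 to 7 lower at an unadjusted p of 0.05.

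Counts of all genes called were 5 lower with quantile normalisation, 16 higher and 15 lower with median centring, 13 and 7 without the dimmest 33.3% of genes, and 220 and 259 with robust variances plus an intensity trend, which called 6 members. The members' median was -0.0525 with median centring, -0.095 without dim genes (then -0.59 for alpha, -0.195 for other transferases and 0.035 for peroxidases) and -0.0075 with the mean of probe sets. The median of synthesis, reduction and breakdown was 0.005 with median centring. Leaving out arrays gave medians of -0.0775 to -0.02 for all members, 0.135 to 0.30 for mu, -0.3125 to -0.1725 for alpha, -0.1475 to -0.0625 for other transferases, 0.025 to 0.09 for peroxidases, -0.07 to 0.03 for synthesis, reduction and breakdown and -0.2325 to -0.165 for the Nfe2l2 group. Gclc was -0.005 with median centring and Gstm3 0.00 with the mean of probe sets. Members whose sign turned without 1 array had log2 changes near 0 that never passed: Gstm1 (-0.15 to 0.02), Gstm2 (-0.02 to 0.31), Gstm3 (-0.185 to 0.085), Gstm4 (-0.01 to 0.16), Gsta3 (-0.075 to 0.285), Gstt1 (-0.075 to 0.175), Gpx3 (-0.015 to 0.195), Gpx8 (-0.07 to 0.04), Gclc (-0.055 to 0.085), Gclm (-0.07 to 0.16), Ggt5 (-0.04 to 0.11) and Ggt7 (-0.10 to 0.33). The cause of these shifts was not tested.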
